A study of Anser anser with 2 samples.

Results

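The miRNAs described here are miR-148a, miR-148b, miR-152, miR-22, miR-215, miR-192 and miR-194, which in mammals count among the better known miRNAs of liver. Members were found in the deposited lists of liver miRNA reads by the number in their name (miR-22, miR-148, miR-152, miR-192, miR-194 or miR-215 with any letter, arm or star). This gave 19 of the 1173 miRNA arms listed, of which 14 had a read in the overfed library and 18 in the control library. The libraries are small RNA of goose liver, 1 library of overfed and 1 of control birds. Both libraries came from males of the Landes breed, which is raised for foie gras, at 90 days of age. The experiment had 60 birds, and the number pooled into a library, if any were pooled, is not stated in the labels. Overfed geese received a feed rich in carbohydrate, with 3353 kcal, 76 g of protein and 15 g of fat in each kg, over 21 days, and their liver is labelled fatty. Control geese ate a basal feed freely, with 2873 kcal and 171 g of protein in each kg, and their liver is labelled normal. The overfed library listed 9737540 miRNA reads and the control library 9178938. With 1 library per group nothing here has a replicate check. Every difference is between these 2 libraries, no p-value is given, and each interval is an exact 95% interval that covers counting error only.

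A miRNA guides a silencing complex to messenger RNAs, mainly through its seed (bases 2 to 8), so miRNAs with the same seed share many targets. miR-148a, miR-148b and miR-152 form such a family; in mouse and human liver cells miR-148a represses the LDL receptor and the cholesterol exporter ABCA1. miR-192 and miR-215 share another seed, and their genes lie in mammals beside those of miR-194; these miRNAs are known from liver, gut and kidney and are induced by p53 in human cells. miR-22 comes from a non-coding transcript and is abundant in mammalian heart and liver. miR-122, the hepatocyte miRNA against which all of them are set below, supports cholesterol synthesis in mouse liver.

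The read that was most common over both libraries is shown first for the main member arms, because members with 1 seed form a family. The scarce miR-192 and miR-194-5p are shown too. The miR-192 read shown had only 1 overfed and 0 control reads, no more than any other read of that name. The miR-194-5p read had 5 overfed and 2 control reads. Reads are given 5′ to 3′ in DNA letters as the files list them, with the seed in capitals.
miR-148b-3p: tCAGTGCAtcacagaacttggt
miR-148a-3p: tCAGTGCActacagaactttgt
miR-22-3p: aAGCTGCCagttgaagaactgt
miR-22-5p: aGTTCTTCagtggcaagcttt
miR-215: aTGACCTAtgaattgacagac
miR-192: aTGACCTAtgaattgacagcc
miR-194-5p: tGTAACAGcaactccatgtggac
The miR-148a and miR-148b reads carry 1 seed, and so do the miR-215 and miR-192 reads. The 5 arms with the seed CAGTGCA (listed as miR-148b-3p, miR-148a-3p, miR-152-3p, miR-148 and miR-152a) held 16383 of the 18026 member reads in the overfed library and 14500 of 16126 in the control library. The miR-22-3p seed came next with 1274 and 1322 reads, and the seed of miR-215 and miR-192 with 258 and 199.

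Reads listed as miR-152-3p and as miR-148b-3p were nearly all of 1 sequence, which is 1 base away from each of the named references. The reads of the family are set side by side here because bases 9, 10 and 20, in capitals and counted from the 5′ end, tell them apart.
miR-148a-3p, most common read: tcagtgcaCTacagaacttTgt
miR-148b-3p, most common read: tcagtgcaTCacagaacttGgt
listed as miR-152-3p, most common read: tcagtgcaTCacagaacttGg
miR-152-3p, mouse sequence named by the files: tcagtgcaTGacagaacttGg
The most common read listed as miR-152-3p was that listed as miR-148b-3p without its last base. This sequence differed from the mouse miR-152 reference by G10C and from the rat miR-148b reference by T20G (the base of the reference first), so that base 10 was that of miR-148b and base 20 that of miR-152. The read one base shorter made up 496 of the 517 reads of that name in the overfed library and 366 of 378 in the control library. Among reads with the seed that reach base 20, this pair of bases stood in 12664 of 12671 overfed and 9583 of 9590 control reads listed as miR-148b-3p, and in 509 of 513 overfed and 374 of 375 control reads listed as miR-152-3p. The files' names therefore do not tell which of the 2 genes the sequence comes from; it is called miR-148b below after the name that holds most of its reads. No read of any name in either library began with the first 17 bases of miR-152, and a count of 0 (taken as at most 3 counts) allows up to 0.308 RPM in the overfed library and 0.327 RPM in the control library. RPM stands for reads out of every 1000000 miRNA reads that a file lists. Of reads listed as miR-148b-3p, 1.97% in the overfed library and 1.40% in the control library matched the rat sequence without a mismatch. For miR-148a-3p that share was at least 94.8% in both libraries. The matching miR-148b-3p reads, 255 overfed and 137 control, mostly ended before base 20. The common read without its last 4 bases, which matches the rat sequence over its length, had 213 overfed and 100 control reads. Among reads with the seed that reach base 20, only 4 overfed and 6 control reads had the rat bases at 10 and 20. Of the reads listed as miR-148 under fish names, 69 of 96 in the overfed library and 72 of 98 in the control library began with the first 17 bases of miR-148a. The names miR-152-3p and miR-148 thus rest mostly on the same sequences as miR-148b-3p and miR-148a-3p.

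Beside miR-122-5p, the defining miRNA of hepatocytes, which held 74.4% of miRNA reads in the overfed library and 72.7% in the control library, the members were scarce. All of them together held 0.185% of reads in the overfed library (0.182% to 0.188%) and 0.176% in the control library (0.173% to 0.178%), or 1 read for 402 and 414 miR-122-5p reads. miR-148b-3p, the most abundant member, stood at 1331 RPM in the overfed library and 1063 RPM in the control library, place 21 and place 24 among all arms, with 559 and 684 miR-122-5p reads to each of its reads. miR-148a-3p, the member that represses LDL receptor in mammals, stood at 287 RPM in the overfed library and 465 RPM in the control library, with 2587 and 1563 miR-122-5p reads to each of its reads. miR-22-3p lay lower again, with 130 RPM in the overfed library and 144 RPM in the control library. By name, the order of miR-148b-3p, miR-148a-3p, miR-22-3p, miR-152-3p and miR-215 was the same in both libraries, and no 2 neighbours in it had overlapping counting intervals. The place of miR-152-3p is mostly that of the miR-148b-3p read without its last base. miR-148 and miR-22-5p, next in the order, did overlap in both. How evenly different miRNA sequences are captured in such libraries was not tested, so these places are places among reads.

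**Figure D1:**
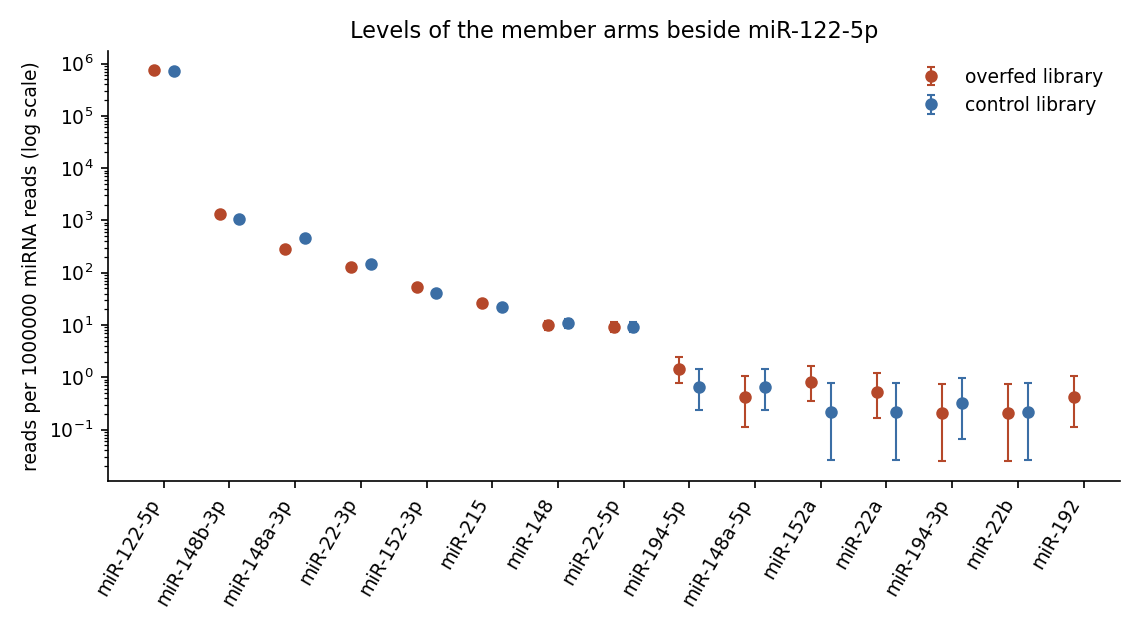
Level of each member arm with at least 4 reads in all, and of miR-122-5p, in reads per 1000000 listed miRNA reads on a log scale, with overfed left of control; bars are exact 95% Poisson intervals. miR-148b-3p, at 1331 RPM in the overfed and 1063 RPM in the control library, is the highest member, and miR-192 has no control point because it had 0 reads there.

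miR-215, which shares its seed with miR-192, was listed with 254 reads in the overfed library (26.1 RPM) and 199 reads in the control library (21.7 RPM). miR-192 itself had 4 overfed reads and 0 control reads. Taken again as at most 3 counts, 0 reads allow up to 0.327 RPM in the control library, and the exact Poisson interval reaches 0.402 RPM. In their 3′ part the pair differs at base 20. Of reads that hold bases 20 and 21, 217 overfed and 170 control reads had the miR-215 base there, and 5 overfed and 0 control reads had the miR-192 base. miR-194-5p, the neighbour of this pair in mammals, had 14 reads in the overfed library (1.44 RPM) and 6 in the control library (0.654 RPM). Its log2 ratio of 1.14 had an interval from -0.33 to 2.80, so a difference was not detectable at this depth. The other arms of this group, listed as miR-194-3p, miR-194 star, miR-194b, miR-192-3p and miR-215 star, had at most 3 reads in either library. Where this base was read, miR-215 was thus the main one of the pair in both libraries.

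The next comparison asked how the members differed between fatty and normal liver. A rule of size took the place of a test. It asked for a mean level of 10 RPM or more in the pair of libraries, a change by 2 times or more, up or down, and an interval without 1. Of the 19 member arms 6 passed the minimum, and 0 of these met the rule, beside 8.89% of the 135 miRNA arms past the minimum (7.41% higher and 1.48% lower). With a size of 1.5 times, 1 of the 6 met it, miR-148a-3p (lower), beside 25.9% of the 135 (16.3% higher and 9.63% lower). Beyond counting error 2 of the 6 were higher and 2 lower, beside 44.4% and 31.9% of the 135. The median log2 ratio was 0.08 over the 6 arms and 0.09 over the 135. These shares lie near those of all miRNAs, and with miR-152-3p and miR-148 mostly of the sequences listed as miR-148b-3p and miR-148a-3p, the 6 arms are not independent of each other.

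Within the family of 1 seed, the abundant members differed in opposite directions. miR-148b-3p had 12963 reads in the overfed library and 9754 in the control library, and its log2 ratio of overfed over control was 0.33 (0.29 to 0.36). The reads listed as miR-152-3p, nearly all of the same sequence, stood at 53.1 RPM in the overfed library and 41.2 RPM in the control library (log2 ratio 0.37, 0.17 to 0.56), though with edgeR's TMM factors the interval held 0. miR-148a-3p had 2799 reads in the overfed library and 4268 in the control library, a log2 ratio of -0.69 (-0.76 to -0.62). With reads sorted by their first 17 bases in place of their names, the log2 ratio was 0.33 (0.29 to 0.37) for miR-148b and -0.68 (-0.75 to -0.61) for miR-148a. Both directions held under each scaling tried, though the TMM factors lowered every log2 ratio by 0.23 and left miR-148b-3p at 0.095.

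The balance of the pair needs no scaling, since both are read in the same library. miR-148a-3p made up 17.8% of the reads of both in the overfed library (17.2% to 18.4%) and 30.4% in the control library (29.7% to 31.2%). There were 4.63 miR-148b-3p reads to each miR-148a-3p read in the overfed library and 2.29 in the control library. The sum over the seed was nearly level, with 1682 RPM in the overfed library and 1580 RPM in the control library. Its log2 ratio was 0.09 (0.06 to 0.12), a value that the TMM shift of -0.23 turns below 0. DESeq2's median-of-ratios factors shift every log2 ratio by -0.091, which leaves this one near 0. The libraries thus differed more in which member carried this seed than in its sum. In whole liver, fewer cells of a type and less of a miRNA in each cell cannot be told apart.

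**Figure D2:**
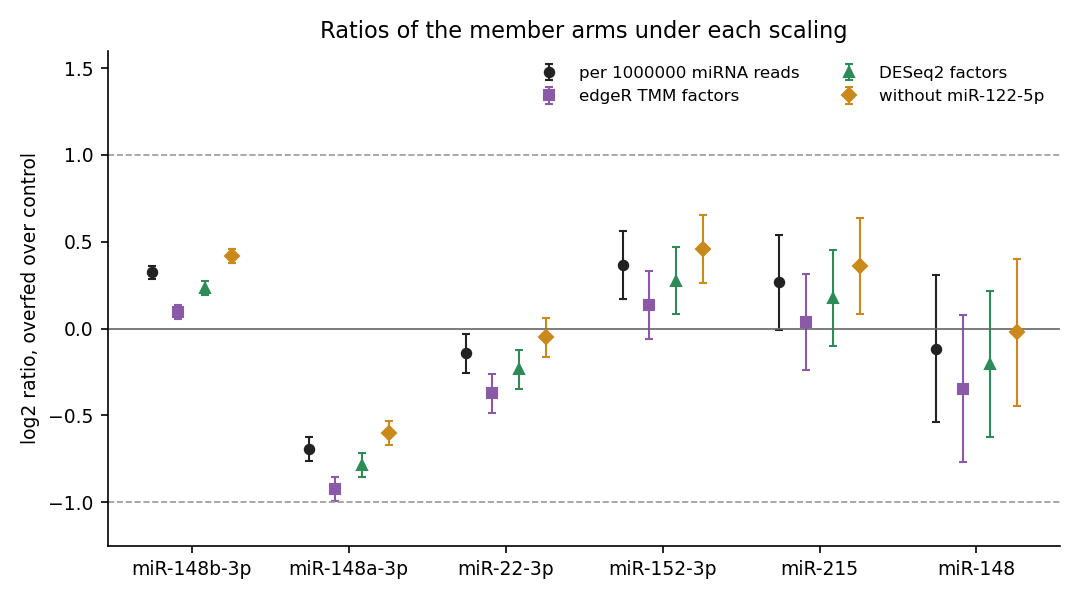
log2 ratio of overfed over control for the 6 member arms with a mean of at least 10 RPM, under 4 scalings; bars are exact 95% intervals for counting error and dashed lines mark 2 times higher and lower. miR-148b-3p lies above 0 and miR-148a-3p below 0 in each scaling, while miR-215 and miR-148 have intervals that hold 0 with the main scaling.

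miR-22-3p had 1269 reads in the overfed library and 1320 in the control library, with a log2 ratio of -0.14 (-0.25 to -0.03). Scaled without miR-122-5p, its interval held 0. miR-22-5p, the scarcer strand of the same hairpin, had 89 and 83 reads. The share of miR-22-5p among both strands was 6.55% in the overfed library and 5.92% in the control library, with intervals that overlap. miR-215 had a log2 ratio of 0.27 (-0.01 to 0.54), and miR-148 without a letter one of -0.11 (-0.54 to 0.31). Scaled without miR-122-5p, the log2 ratio of miR-215 was 0.36 and its interval (0.09 to 0.63) no longer held 0. The arms not yet given were listed as miR-148a-5p with 4 reads in the overfed and 6 in the control library, miR-148 star with 0 and 1, miR-152a with 8 and 2, miR-22a with 5 and 2, and miR-22b with 2 and 2. They are too few to compare.

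The last comparison was of read forms, and it separated miR-148a from miR-148b more sharply than the totals did. The full miR-148a-3p read of 22 bases had 949 reads in the overfed library (97.5 RPM) and 1923 in the control library (210 RPM), a log2 ratio of -1.10 (-1.22 to -0.99). An 18-base read that lacks the last 4 bases was lower too, but by less. It had 1298 reads in the overfed library (133 RPM) and 1417 in the control library (154 RPM). Its log2 ratio was -0.21 (-0.32 to -0.10). This read is shown because it was the most common miR-148a read of the overfed library.
miR-148a-3p, 4 bases shorter: tcagtgcaCTacagaact
The lower level of miR-148a-3p in the overfed library lay mostly in reads longer than 18 bases. Reads of 21 bases or more had a log2 ratio of -1.07 (-1.18 to -0.97) and reads of 18 to 20 bases one of -0.33 (-0.43 to -0.24). The smaller drop was that of the 18-base reads, since reads of 20 bases had a log2 ratio of -0.79 (-1.02 to -0.57). The share of 18-base reads among miR-148a-3p reads was 46.6% in the overfed library (44.8% to 48.5%) and 33.4% in the control library (32.0% to 34.9%). The files list no read under 18 bases, so shorter forms were not counted. Per the labels the libraries were made from RNA of 20 to 30 nt, so 18-base reads lie below the fraction that was cut. The part of this cut in these shares was not tested.

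miR-148b-3p, with the same seed, was read almost wholly at full length. Its 18-base reads made up 1.66% in the overfed library and 1.03% in the control library. Its 22-base read held 74.2% of its reads in both. Forms 1 base longer came next, with 9.67% ending in T and 9.36% in A in the overfed library, and 10.3% and 9.02% in the control library. These shares are by name, and the form 1 base shorter is listed as miR-152-3p. With reads sorted by their first 17 bases, the 22-base read held 71.8% in the overfed and 72.1% in the control library. The form 1 base shorter then held 3.70% and 3.64%. Sorted by their first 17 bases, full-length reads of miR-148b outnumbered those of miR-148a by 10.1 to 1 in the overfed library and 3.77 to 1 in the control library, while among the reads 4 bases shorter there were 0.164 and 0.0706 of miR-148b to each of miR-148a. Which of the pair prevails therefore depended on the length of read counted, in both libraries.

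**Figure D3:**
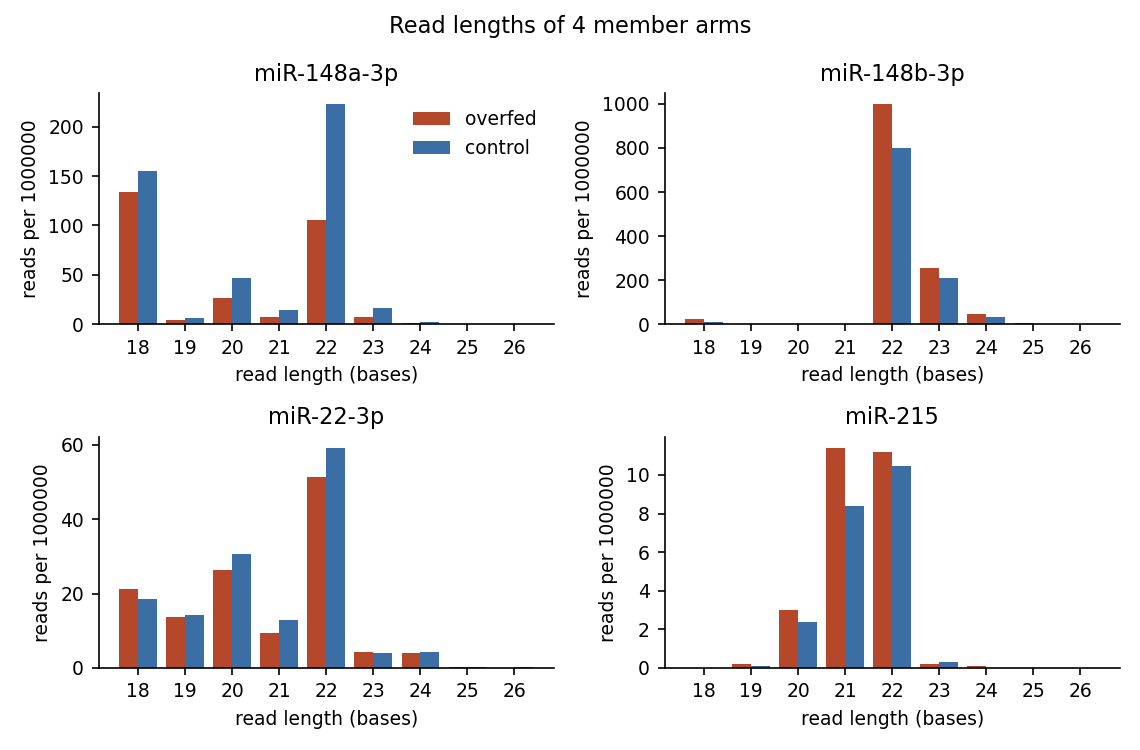
Reads of 4 member arms by read length in bases, in reads per 1000000 listed miRNA reads, with overfed bars left of control bars; scales differ between panels. At 22 bases miR-148a-3p stands at 105 RPM in the overfed and 222 RPM in the control library, but at 18 bases at 134 and 155 RPM, while reads of 18 to 20 bases make up 1.94% and 1.36% of miR-148b-3p.

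Short reads were more common in the overfed library for most miRNAs. Of 51 miRNAs that had 1000 or more reads in both libraries, 43 had a higher share of 18 to 20 base reads there. The median share was 12.6% in the overfed library and 8.60% in the control library. Taken miRNA by miRNA, the median difference, overfed minus control, was smaller, at 1.51 percentage points. For miR-148a-3p the share of 18 to 20 base reads was 57.6% (55.7% to 59.4%) in the overfed library and 44.8% (43.3% to 46.3%) in the control library. The difference between the libraries of 12.8 percentage points was place 2 of the 51. Places 1 and 3 were close to it, with let-7i-5p at 12.8 and miR-191-5p at 12.5 points. For miR-148b-3p the shares were 1.94% and 1.36%, and for miR-22-3p 47.0% and 43.9%, with intervals for miR-22-3p that overlap. For miR-122-5p they were 3.29% and 2.59%. Relative to longer reads of the same arm, short reads were more common in the overfed library for both miR-148b-3p and miR-148a-3p. The ratios of the short reads themselves went opposite ways. The log2 ratio of miR-148b-3p was 0.84 (0.53 to 1.15) for reads of 18 to 20 bases and 0.32 for longer reads. For miR-148a-3p the values were -0.33 and -1.07. The part of this general difference in the read forms of miR-148a-3p was not tested.

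**Figure D4:**
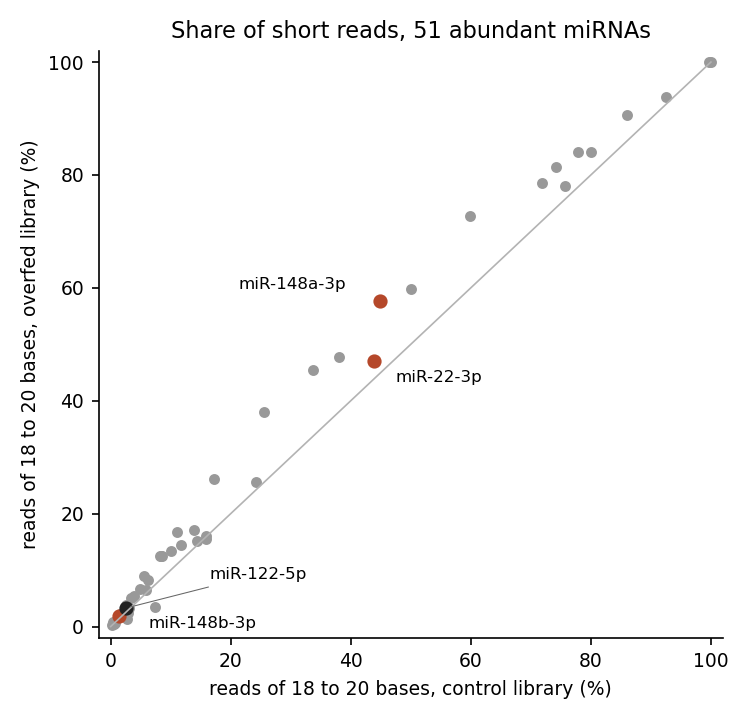
Share of reads of 18 to 20 bases in the overfed library (vertical axis, %) against the control library (horizontal axis, %) for 51 miRNAs that had 1000 or more reads in both; the line marks equal shares. miR-148a-3p lies above the line at 57.6% in the overfed and 44.8% in the control library, and miR-148b-3p near the origin at 1.94% and 1.36%.

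The other forms kept the 5′ end. At least 97.8% of the reads of miR-148b-3p, miR-148a-3p, miR-22-3p, miR-152-3p and miR-215 in each library began with the same 8 bases as the reads printed above, so their seed was that of the mature sequence. miR-22-3p was read at many 3′ ends, with its 22-base read at 36.6% in the overfed library and 36.2% in the control library and reads 2 bases shorter at 17.2% and 18.5%. The miR-215 read most common over both libraries, of 21 bases, made up 43.7% in the overfed library and 36.7% in the control library. The same with a T added made up 30.7% and 37.7%. In the control library this longer form had 75 reads against 73. The intervals of both shares overlap between the libraries.

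Beside the most abundant member in mean level stood miR-26a-5p and miR-30d-5p above, and miR-2487 and miR-30a-5p below. The miRNAs past the minimum with the log2 ratio nearest to that of miR-148b-3p were miR-181b-5p (0.32), miR-15b-5p (0.33) and miR-27d-3p (0.34). Reads of 18 to 20 bases made up 99.9% of miR-27d-3p in the overfed library and 99.6% in the control library. For miR-148b-3p they made up 1.94% and 1.36%. Nearest to miR-148a-3p were miR-30c-5p (-0.68), miR-200b-3p (-0.72) and miR-125b-5p (-0.64). This likeness rests on 2 libraries alone.

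A list of other liver miRNAs gave the setting. Of 12 names 10 were listed, as 11 arms, and 6 arms passed the minimum. Counting error was exceeded by all 6, with 4 higher and 2 lower, beside 44.4% higher and 31.9% lower of all 135 arms. Among the 4 higher was miR-122-5p itself at a log2 ratio of 0.03. The TMM shift of -0.23 and the median-of-ratios shift of -0.091 each turn this value below 0. The median log2 ratio was 0.25, against 0.09 over the 135. Within this list miR-365a-3p, which lies in clusters with miR-193 genes, stood at 49.2 RPM in the overfed library and 25.9 RPM in the control library (log2 ratio 0.92), and miR-122-3p at 329 and 237 RPM (0.47). miR-33a-5p, which in mammals lies in an intron of the sterol regulator SREBF2, stood at 366 RPM in the overfed library and 259 RPM in the control library (0.50). miR-101a-3p was at -0.26 and miR-99a-5p at -0.53. Markers of cells other than hepatocytes had summed levels of 120 RPM in the overfed library and 109 RPM in the control library for leukocytes (5 of 5 listed), 301 and 346 RPM for red cells (3 of 4) and 91.0 and 82.8 RPM for endothelium (2 of 2). The sums were 5926 and 7173 RPM for stellate or mesenchymal cells (5 of 5), 279 and 123 RPM for biliary or other epithelium (4 of 6) and 876 and 819 RPM for muscle (3 of 3). Most of the epithelial sum was miR-203-3p, at 219 RPM in the overfed library and 43.1 RPM in the control library, while miR-200a-3p and miR-200b-3p had log2 ratios of -0.29 and -0.72. Markers of 1 cell type also went opposite ways in other sums. For leukocytes miR-223-3p had a log2 ratio of 0.62 and miR-150-5p one of -0.37. For endothelium miR-126-5p had 0.30 and miR-126-3p -0.40. Of the 5 stellate or mesenchymal arms past the minimum, miR-199a-5p was higher (0.15) and the other 4 were lower. Most of that sum was miR-199a-3p, at 4119 RPM in the overfed library and 5048 RPM in the control library (-0.29). Nearly all of the muscle sum was miR-1a-3p, at 869 RPM in the overfed library and 815 RPM in the control library. The leukocyte marker miR-155-5p had 3 overfed reads and 0 control reads, and the epithelial markers miR-200c-3p and miR-141-3p had no read listed. The red cell marker not found was miR-144-5p, whose name the files do not use; reads listed as miR-144 star were not added to the sum. The part of cell makeup in the ratios of the members was not tested.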

How the data were processed

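Per the labels' protocols, Trizol was used for total RNA, and Illumina libraries were made from the fraction of 20 to 30 nt of 10 μg. The authors deposited the read count of each distinct read sequence with the miRNA name it matched; the counts are whole numbers, not normalized. The deposited score of each match was not used, and columns of lengths, matches and mismatches served only to sort reads. No label or file names the aligner or the miRNA database. Groups come from the labels, with 1 library each. Totals are of listed miRNA reads, not of whole libraries; 1 read was 0.103 RPM in the overfed and 0.109 RPM in the control library.

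Counts were summed over species names with the same miRNA and arm. A name without an arm or letter joined a fuller name of its number where their sequences shared a run of 18 or more bases that left out no more than 2 of the shorter. Ratios have exact conditional binomial intervals, shares Clopper-Pearson and levels Poisson intervals; reads are amplified copies, so all cover counting error only. The members, lists and rules were chosen with earlier results of these data known. All member arms were named; other miRNAs were named by nearness in level or ratio or from the lists. Alternatives were scaling by TMM, by median-of-ratios factors or with miR-122-5p left out, other sets of tags, minimums and sizes. Factors came from edgeR 4.0.16 and DESeq2 1.42.0 (R 4.3.3). All else was computed in Python 3.11.15 with scipy 1.17.1, numpy 2.4.6 and pandas 2.3.3, and plots were drawn with matplotlib 3.10.9. Genome positions are not given, since no genome was used here.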

Additional observations from a re-analysis of the deposited data

How the results depend on the processing

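No paired analysis was possible because there was a single library on each side, so no replicate could be left out either. Sorting by the first 17 bases and names without joining were chosen after seeing the data. Of 68 values under alternatives, 44 moved by less than counting error or, for counts of arms, by less than 1.5 times. No log2 ratio of a single member arm beyond counting error turned its direction. The members' summed share did with tags without a mismatch (below). The TMM shift of -0.23 and the median-of-ratios shift of -0.091 each turn their sum (0.08) below 0. TMM factors gave log2 ratios of 0.095 for miR-148b-3p, -0.92 for miR-148a-3p, -0.37 for miR-22-3p and 0.14 for miR-152-3p. Median-of-ratios factors gave 0.23 for miR-148b-3p and -0.78 for miR-148a-3p, and scaling without miR-122-5p 0.42 and -0.60; each scaling shifts all ratios by 1 constant. Tags of at least 21 bases put miR-148a-3p at -1.06. With them 1 of 5 member arms compared met the rule of 2 times, beside 8 higher and 5 lower of 107 arms. With all tags and a size of 1.5 times 1 of 6 did, beside 22 higher and 13 lower of 135. Tags without a mismatch gave 0.80 for miR-148b-3p and -2.42 for miR-148, the latter with an interval (-7.99 to 0.74) that held 0. Both rest on the few reads left, since the common read listed under each name differs from its named sequence. Sorted by the first 17 bases, the 8 overfed and 5 control reads left as miR-152-3p gave 0.59. The members' share of reads was 0.722% in the overfed and 0.642% in the control library without miR-122-5p, 0.0465% and 0.0640% with tags without a mismatch, and 0.167% and 0.152% with tags of 21 or more bases. The miR-122-5p reads to each member read were 1602 and 1132 without a mismatch, and 454 and 486 with the longer tags. Depth limits the 13 member arms under the minimum, of which miR-194-5p had 14 overfed and 6 control reads.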
